A study of Mus musculus with 4 samples.

Results

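The cells described here are mouse thymocytes that were rich in mRNA of Ikzf2, the gene for the transcription factor Helios, and in which no Foxp3 mRNA was counted. They were taken from 2 droplet libraries of thymocytes sorted for CD4 and CCR7, a chemokine receptor of maturing thymocytes. The first came from Cgas KO mice, which carry the Cd4Cre transgene together with floxed Cgas alleles; cGAS, the encoded enzyme, senses DNA in the cytosol. The second came from WT mice, which carry the Cd4Cre transgene alone, so Cre was present in both genotypes. Cd4Cre is active from the CD4 CD8 double-positive stage of thymocytes onwards, so deletion is limited to T lineage cells that have reached it. The labels do not say how many mice went into a library, nor their age or sex. The question put by the series is what cGAS does to the transcription of such thymocytes, and a T cell receptor (TCR) library accompanied each expression library.

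A barcode was kept as a cell with at least 2000 unique molecular identifiers (UMIs, each counting 1 captured mRNA molecule), at least 500 genes and at most 10% mitochondrial UMIs. A kept cell was called Helios-high with at least 3 Ikzf2 UMIs, no UMI of Foxp3, Il2ra, Cd8a, Cd8b1 or Rag1, and a sum of at most 3 UMIs over Nr4a1, Nr4a3, Egr2 and Egr3. This gave 533 of 14381 kept Cgas KO cells and 463 of 12929 kept WT cells, 996 of 27310 in all. The cells were thus chosen by the measured counts of these 10 genes, so the levels of those genes are descriptions and no test was run on them. All comparisons of the Helios-high cells with other cells of the same libraries rest on the same counts too. With 1 library per genotype no difference between genotypes has a replicate check. Every interval is an exact 95% interval that covers counting error only.

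Helios belongs to the Ikaros family of zinc finger proteins. In the thymus it is known as a marker of thymocytes that met strong self ligands, both those that are deleted and those that become regulatory T cells (Treg cells), which express Foxp3. Strong TCR signals also induce the NR4A and EGR transcription factors within a short time, and receptors of the TNF receptor family such as 4-1BB, OX40 and GITR, which feed the NF-kappaB pathway. Bim, encoded by Bcl2l11, is a main killer protein of negative selection, and BCL-2 opposes it.

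Before the results, 1 feature of the Cgas KO library has to be stated. Among Cgas KO cells with alpha and beta chains, 598 combinations of chains stood on 2 barcodes each, so that 1196 of 12029 cells (9.94%) shared their TCR with another barcode. In WT this held for 37 of 10754 cells (0.344%). Of the Helios-high cells with both chains, 45 of 445 in Cgas KO and 2 of 367 in WT were among them. In 13 such Cgas KO combinations both barcodes were Helios-high cells. Whether these are sister cells or 1 cell read on 2 barcodes was not tested. For the comparisons with Ikzf2-zero cells and between genotypes, counts of calls that move without them are given both ways. The kept cells of the libraries had 276 barcode sequences in common, none of them on Helios-high cells.

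Helios-high cells made up 3.71% of kept Cgas KO cells (95% interval 3.40% to 4.03%) and 3.58% of kept WT cells (3.27% to 3.92%). The ratio of Cgas KO to WT was 1.04, with an interval of 0.912 to 1.17. Equal shares lie inside that interval. Median depth was 4523 UMIs in Cgas KO and 5101 UMIs in WT Helios-high cells. Ikzf2 had a median of 7 UMIs per Cgas KO cell and 6 UMIs per WT cell, with upper quartiles of 11 in both and maxima of 50 in Cgas KO and 48 in WT. The absence of a Foxp3 UMI does not show that the gene was silent. Among Ikzf2-high cells with an Il2ra UMI, the cells in which Foxp3 would be looked for first, a Foxp3 UMI was seen in 63 of 200 in Cgas KO (31.5%) and in 91 of 246 in WT (36.99%). The rest may mix cells without Foxp3 mRNA and cells in which it was missed, so these shares do not measure detection.

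The label CD4 was read against mRNA of Cd4, Ccr7 and Zbtb7b. Cd4 mRNA stood at 259.8 CPM (counts per 1000000 summed UMIs of a cell group) in Cgas KO and 244.8 CPM in WT Helios-high cells. Cells of the same rule but with no Ikzf2 UMI, called Ikzf2-zero cells here, had 279.3 CPM in Cgas KO and 276.9 CPM in WT. They numbered 5838 in Cgas KO and 5062 in WT, with median depths of 4312.5 UMIs in Cgas KO and 4783 UMIs in WT, and neither rule asked for a Cd4 UMI. Ccr7, by whose protein the cells were sorted, was at 830.9 CPM in Cgas KO and 714.9 CPM in WT Helios-high cells, against 672.0 CPM in Cgas KO and 573.9 CPM in WT Ikzf2-zero cells. Both genes of the sort were thus present, and levels of Cd4 lay close to those of the Ikzf2-zero cells. A Cd4 UMI was counted in 340 of 533 Cgas KO and 322 of 463 WT Helios-high cells. Zbtb7b, a CD4 lineage gene, had 70.4 CPM in Cgas KO and 58.0 CPM in WT Helios-high cells. Ikzf2-zero cells had more, 95.2 CPM in Cgas KO and 100.7 CPM in WT. Over the 9 CD4 lineage genes measured, the median log2 ratio to Ikzf2-zero cells was 0.00.

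Relative to Ikzf2-zero cells, the Helios-high cells of both libraries were rich in costimulatory receptors of the TNF receptor family, in NF-kappaB components and in Treg-associated genes. They were poor in the survival genes Bcl2 and Il7r. A gene was counted as higher or lower where its CPM differed at least 1.5-fold in both libraries, with 1 CPM added to each side. Of 8422 genes measured, 297 were higher (3.53%) and 141 were lower (1.67%), and the median log2 ratio was 0.04. These shares are the background for the gene lists below. A further 253 genes were higher and 215 lower in 1 library and not in the other. Scaling by trimmed means, which moved every log2 ratio by -0.09 in Cgas KO and -0.12 in WT, gave 238 higher and 212 lower genes. Without the cells that share a TCR, 1 barcode being kept per combination, and without cells with at least 2 beta chains, 333 genes were higher and 164 lower. Of these, 290 and 128 were counted among the first 297 and 141.

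Tnfrsf9, the gene for 4-1BB, lies at chr4 150920155 to 150946104 of GRCm38. It stood at 398.8 CPM in Cgas KO and 392.5 CPM in WT Helios-high cells, against 15.9 CPM in Cgas KO and 14.96 CPM in WT Ikzf2-zero cells. The ratio was 25.0 in Cgas KO (22.4 to 28.0) and 26.2 in WT (23.4 to 29.5). Only Lad1, at chr1 135818598 to 135833341 and coding for ladinin-1, a protein first described in basement membranes, had a higher mean log2 ratio among the genes measured outside the rule. Lad1 was at 158.6 CPM in Cgas KO and 207.2 CPM in WT Helios-high cells and at 5.1 CPM in Cgas KO and 4.9 CPM in WT Ikzf2-zero cells.

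Of the TNF receptor family list, which holds receptors, ligands and TRAF adaptors, 19 genes were measured, 8 were higher and 1 was lower, with a median log2 ratio of 0.52. Tnfrsf4, at chr4 156013595 to 156016613 and coding for OX40, had 341.4 CPM in Cgas KO and 396.5 CPM in WT Helios-high cells, against 91.7 CPM in Cgas KO and 92.4 CPM in WT Ikzf2-zero cells. The Tnfrsf4 ratio was 3.72 in Cgas KO (3.46 to 4.01) and 4.29 in WT (3.99 to 4.61). Its neighbour Tnfrsf18, at chr4 156026322 to 156028894 and coding for GITR, had 267.9 CPM in Cgas KO and 283.4 CPM in WT Helios-high cells, against 103.8 CPM in Cgas KO and 102.6 CPM in WT Ikzf2-zero cells. Tnfrsf1b, the gene for TNF receptor type 2, the death receptor gene Fas and the adaptor gene Traf1 were also higher, as were Tnfrsf25 and the cytokine gene Lta. Fas had 124.7 CPM in Cgas KO and 139.0 CPM in WT Helios-high cells, against 52.4 CPM in Cgas KO and 56.3 CPM in WT Ikzf2-zero cells. The gene lower in the list was Cd40lg, the CD40 ligand of helper T cells, with 100.2 CPM in Cgas KO and 86.8 CPM in WT Helios-high cells against 159.1 CPM in Cgas KO and 135.4 CPM in WT Ikzf2-zero cells.

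**Figure D1:**
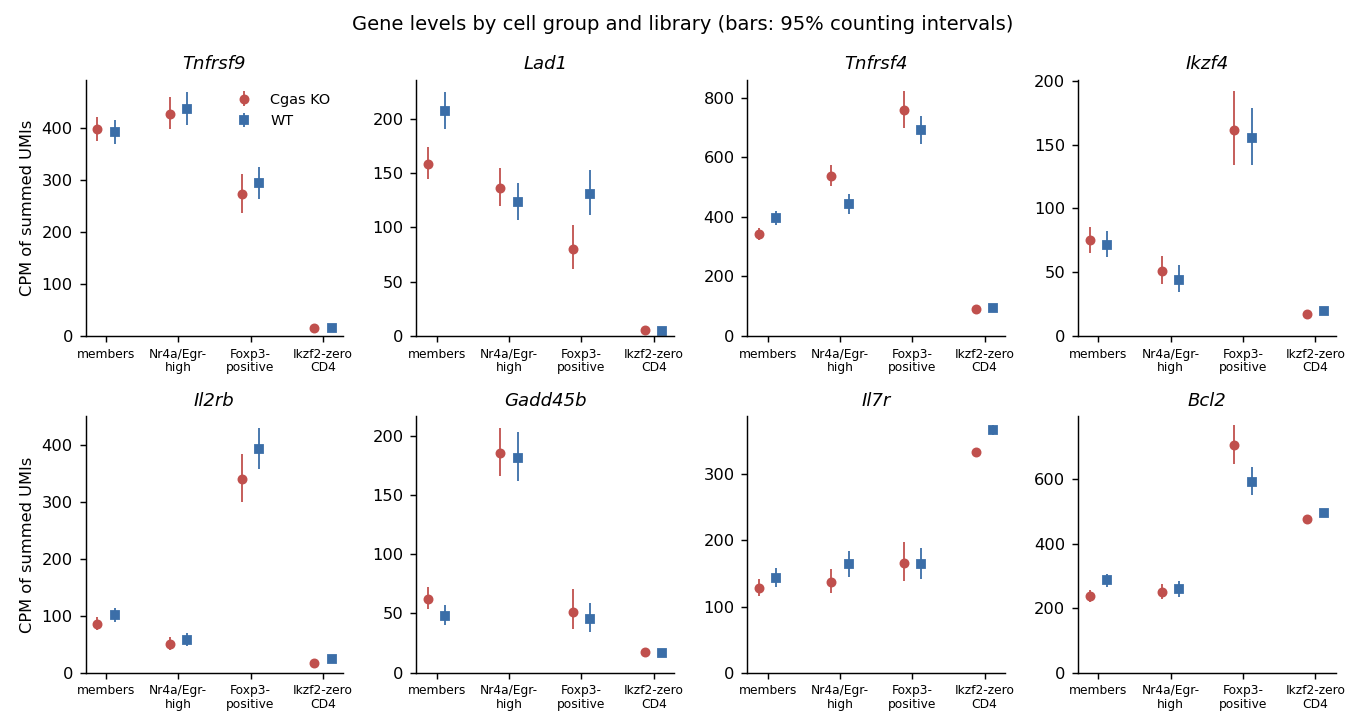
Level of 8 genes in each cell group and library, in CPM of the group's summed UMIs, with exact 95% Poisson intervals as bars. In both libraries Tnfrsf9 lies near 400 in the Helios-high cells (the members in the plot) and near 15 in the Ikzf2-zero cells, and Foxp3-positive cells have the highest Tnfrsf4.

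The NF-kappaB list holds subunits, inhibitors and targets of the pathway. Of 19 genes measured, 8 were higher and 0 were lower, with a median log2 ratio of 0.42, and 9 were higher without the cells of shared TCRs and several beta chains. Among subunits, Nfkb2 had 71.1 CPM in Cgas KO and 82.4 CPM in WT Helios-high cells, against 24.5 CPM in Cgas KO and 25.4 CPM in WT Ikzf2-zero cells. Its ratio of 2.90 in Cgas KO (2.47 to 3.40) and 3.25 in WT (2.78 to 3.78) was above those of its partner Relb, which were 2.16 (1.90 to 2.45) in Cgas KO and 2.17 (1.90 to 2.46) in WT. Rel and Nfkb1 were also higher. Of the inhibitor genes, Nfkbia had 460.1 CPM in Cgas KO and 459.2 CPM in WT Helios-high cells, against 287.1 CPM in Cgas KO and 253.9 CPM in WT Ikzf2-zero cells, and Nfkbie was higher too. The regulator Bcl3 and the adhesion gene Icam1 completed the 8.

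The promoters of these genes are shown because several of them hold the letters of the NF-kappaB consensus, searched on both strands from 250 bases before to 50 bases after each start site in RefSeq sequence of GRCm38.p6. Capitals mark the consensus matches, which may overlap each other. The Tnfrsf9 window, shown for contrast, holds none.
Nfkb2 promoter, chr19:46304487-46304786 (plus strand): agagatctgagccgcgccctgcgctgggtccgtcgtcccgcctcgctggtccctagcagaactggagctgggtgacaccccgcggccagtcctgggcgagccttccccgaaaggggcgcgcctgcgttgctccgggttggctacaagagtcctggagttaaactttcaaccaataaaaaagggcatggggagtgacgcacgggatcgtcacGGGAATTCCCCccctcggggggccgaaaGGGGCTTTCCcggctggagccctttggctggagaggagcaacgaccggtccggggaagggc
Rel promoter, chr11:23770920-23771219 (minus strand): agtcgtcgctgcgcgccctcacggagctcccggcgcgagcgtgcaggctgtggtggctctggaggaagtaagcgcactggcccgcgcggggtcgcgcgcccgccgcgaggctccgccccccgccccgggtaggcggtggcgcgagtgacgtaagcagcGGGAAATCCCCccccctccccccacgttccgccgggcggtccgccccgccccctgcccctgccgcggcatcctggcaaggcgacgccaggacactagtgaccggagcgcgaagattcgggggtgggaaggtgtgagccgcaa
Nfkbia promoter, chr12:55492598-55492897 (minus strand): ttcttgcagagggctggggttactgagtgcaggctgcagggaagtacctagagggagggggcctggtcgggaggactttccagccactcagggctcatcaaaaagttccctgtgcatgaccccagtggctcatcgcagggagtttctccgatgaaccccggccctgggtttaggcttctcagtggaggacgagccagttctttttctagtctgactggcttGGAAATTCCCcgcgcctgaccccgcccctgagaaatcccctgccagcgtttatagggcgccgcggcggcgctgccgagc
Bcl3 promoter, chr7:19822706-19823005 (minus strand): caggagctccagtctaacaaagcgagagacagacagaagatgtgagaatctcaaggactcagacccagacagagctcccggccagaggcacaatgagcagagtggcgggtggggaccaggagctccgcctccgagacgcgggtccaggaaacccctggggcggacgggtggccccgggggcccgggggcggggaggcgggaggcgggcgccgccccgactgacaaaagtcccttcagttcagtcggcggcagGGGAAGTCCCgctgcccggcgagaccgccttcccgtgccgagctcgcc
Tnfrsf9 promoter, chr4:150919905-150920204 (plus strand): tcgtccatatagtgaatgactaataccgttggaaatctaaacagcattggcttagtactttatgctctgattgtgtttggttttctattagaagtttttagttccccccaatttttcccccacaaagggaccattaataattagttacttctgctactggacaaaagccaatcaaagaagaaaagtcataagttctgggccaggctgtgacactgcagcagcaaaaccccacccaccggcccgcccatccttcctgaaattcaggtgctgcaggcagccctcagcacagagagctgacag
The consensus was found in 5 of the 6 higher NF-kappaB list genes with a promoter entry and in 3 of 8 measured list genes that were not called. The list was made of pathway genes and targets, which favours a high share, so the share is no support for pathway activity in these cells. The 6 and 8 genes are also too few to compare. Over all genes it was found in 1175 of 27025 windows (4.35%). It was in 0 of the 13 windows available for the 15 genes with the highest ratios, in 0 of 7 for the 10 with the lowest, and in 0 of 8 higher TNF receptor family genes. The AP-1 motif TGANTCA was in 1 of the 8 (Fas) and 1 of the 6 (Nfkbie), against 7.93% of all windows. The EGR motif GCGTGGGCG was in none of these windows, against 0.625% of all.

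Genes that TCR signals induce, leaving out those of the rule, did not move as 1 group. Of 21 measured, 5 were higher (Cd5, Cd6, Cd200, Dusp4 and Pdcd1) and 3 were lower (Egr1, Itm2a and Myc), with a median log2 ratio of 0.25. Cd5, a receptor that dampens TCR signals and is set by their strength, had 734.6 CPM in Cgas KO and 740.1 CPM in WT Helios-high cells, against 468.9 CPM in Cgas KO and 469.6 CPM in WT Ikzf2-zero cells. Egr1, an immediate early gene, had 35.7 CPM in Cgas KO and 25.5 CPM in WT Helios-high cells, against 63.7 CPM in Cgas KO and 60.5 CPM in WT Ikzf2-zero cells. Myc, which drives growth, had 31.9 CPM in Cgas KO and 30.6 CPM in WT Helios-high cells, against 62.8 CPM in Cgas KO and 62.3 CPM in WT Ikzf2-zero cells. The higher genes thus include receptors and the MAP kinase phosphatase gene Dusp4, and the lower ones include early transcription factors. Egr1 belongs to the family of Egr2 and Egr3, whose counts the rule limits in both groups.

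Of the 9 inhibitory receptor genes measured, 3 were higher and 1 was lower, with a median log2 ratio of 0.33. Pdcd1, which encodes PD-1, had 80.5 CPM in Cgas KO and 63.5 CPM in WT Helios-high cells, against 11.2 CPM in Cgas KO and 14.4 CPM in WT Ikzf2-zero cells. Cd200 was at 100.5 CPM in Cgas KO and 86.8 CPM in WT Helios-high cells and at 22.6 CPM in Cgas KO and 23.5 CPM in WT Ikzf2-zero cells. Ctla4 was higher as well, and Vsir, which encodes the receptor VISTA, was lower.

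Of 17 genes of apoptosis and survival measured, 6 were higher and 1 was lower, with a median log2 ratio of 0.16. Bcl2l11 had 139.7 CPM in Cgas KO and 119.3 CPM in WT Helios-high cells, against 56.9 CPM in Cgas KO and 56.0 CPM in WT Ikzf2-zero cells. Bcl2, the survival gene opposed to it, had 237.8 CPM in Cgas KO and 285.6 CPM in WT Helios-high cells, against 477.1 CPM in Cgas KO and 494.7 CPM in WT Ikzf2-zero cells. The Bcl2 ratio was 0.498 in Cgas KO (0.461 to 0.538) and 0.577 in WT (0.537 to 0.621). The pair therefore differed in opposite directions in both libraries. The survival genes Bcl2a1b and Bcl2a1d were higher, as were Fas and the stress gene Gadd45b among others. Bcl2a1b and Bcl2a1d are near-identical copies, so the split of counts between them is uncertain. Il7r, the receptor for the survival cytokine IL-7, had 128.2 CPM in Cgas KO and 143.4 CPM in WT Helios-high cells, against 333.3 CPM in Cgas KO and 367.3 CPM in WT Ikzf2-zero cells.

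Of 16 Treg-associated genes outside the rule, 9 were higher and 0 were lower, with a median log2 ratio of 1.03. Ikzf4, which encodes the Ikaros family member Eos, had 74.9 CPM in Cgas KO and 71.1 CPM in WT Helios-high cells, against 17.4 CPM in Cgas KO and 19.4 CPM in WT Ikzf2-zero cells. Il2rb, a chain of the IL-2 receptor, had 85.8 CPM in Cgas KO and 100.7 CPM in WT Helios-high cells, against 17.0 CPM in Cgas KO and 24.4 CPM in WT Ikzf2-zero cells. Nrp1, Nt5e, Swap70, Cish, Ctla4, Lad1 and Tnfrsf18 made up the rest. In the Ikaros family, 4 genes were measured, and Ikzf4 and Ikzf3, the gene for Aiolos, were higher, with a median log2 ratio of 0.64. Ikzf3 was at 380.6 CPM in Cgas KO and 396.1 CPM in WT Helios-high cells and at 146.3 CPM in Cgas KO and 152.7 CPM in WT Ikzf2-zero cells.

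Lists of thymocyte maturation held genes that differed in both directions. Of 12 genes of immature single-positive cells, 2 were higher and 2 lower, with a median log2 ratio of -0.35. Cd24a, whose protein is lost as thymocytes mature, had 85.4 CPM in Cgas KO and 64.9 CPM in WT Helios-high cells, against 34.5 CPM in Cgas KO and 26.7 CPM in WT Ikzf2-zero cells. Sox4 was higher with it, and the thymic homing receptor gene Ccr9 and Itm2a were lower. Of 18 genes of mature cells and egress, 0 were higher and Il7r and Ly6c1 were lower, with a median of -0.31. Without the cells of shared TCRs and several beta chains, 3 of these 18 were lower. No gene was higher in the list of CD4 lineage genes (9 measured, Cd40lg lower, median 0.00), nor among the 2 genes measured of the 10 in the CD8 lineage list. Without the cells of shared TCRs and several beta chains, 3 genes of that list were measured and 1 was higher. Below the minimum lay Xcl1, a chemokine gene, with 16.5 CPM in Cgas KO and 21.5 CPM in WT Helios-high cells against 0.395 CPM in Cgas KO and 0.555 CPM in WT Ikzf2-zero cells. Below it also lay Nkg7, a gene of cytotoxic granules, with 7.70 CPM in Cgas KO and 12.0 CPM in WT Helios-high cells against 2.08 CPM in Cgas KO and 3.15 CPM in WT Ikzf2-zero cells.

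Beyond the lists, the 15 genes with the highest mean ratios included several with levels under 3 CPM in Ikzf2-zero cells. Rln3, which encodes the neuropeptide relaxin-3, had 48.3 CPM in Cgas KO and 43.8 CPM in WT Helios-high cells, against 1.0 CPM in each library's Ikzf2-zero cells. Kit, the receptor for stem cell factor, had 19.96 CPM in Cgas KO and 34.7 CPM in WT Helios-high cells, against 0.6 CPM in Cgas KO and 0.7 CPM in WT Ikzf2-zero cells. Rgs16, a brake on G-protein signalling, had 44.8 CPM in Cgas KO and 62.7 CPM in WT Helios-high cells, against 2.4 CPM in Cgas KO and 2.6 CPM in WT Ikzf2-zero cells. These genes were named for their high ratios in this comparison, so the distance between the groups was set by that choice. Arhgap20, which encodes a GTPase-activating protein, and Colq, the collagen tail of acetylcholinesterase, were more abundant. Arhgap20 was at 265.1 CPM in Cgas KO and 220.3 CPM in WT Helios-high cells and at 17.4 CPM in Cgas KO and 13.6 CPM in WT Ikzf2-zero cells. Colq was at 123.6 CPM in Cgas KO and 124.4 CPM in WT Helios-high cells and at 8.0 CPM in Cgas KO and 7.9 CPM in WT Ikzf2-zero cells. The others were Prr5l, Nrp2, Pla2g4f, Myo1e, Eno3, Trpm1, Niban1 and Dusp4, with mean log2 ratios between 2.74 and 3.86.

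At the low end stood Igfbp4, which encodes a binding protein of insulin-like growth factors. It had 139.0 CPM in Cgas KO and 147.0 CPM in WT Helios-high cells, against 545.6 CPM in Cgas KO and 593.1 CPM in WT Ikzf2-zero cells, a ratio of 0.255 (0.230 to 0.281) in Cgas KO and 0.248 (0.224 to 0.274) in WT. The Notch regulator gene Dtx1, the receptor gene Acvrl1 and the neuropeptide receptor gene Vipr1 were among the 10 lowest, with mean log2 ratios of -1.73, -1.85 and -1.41. The remaining 6 were Rflnb, Spef2, Ggt5, Rgmb, Hs3st3b1 and Enc1.

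**Figure D2:**
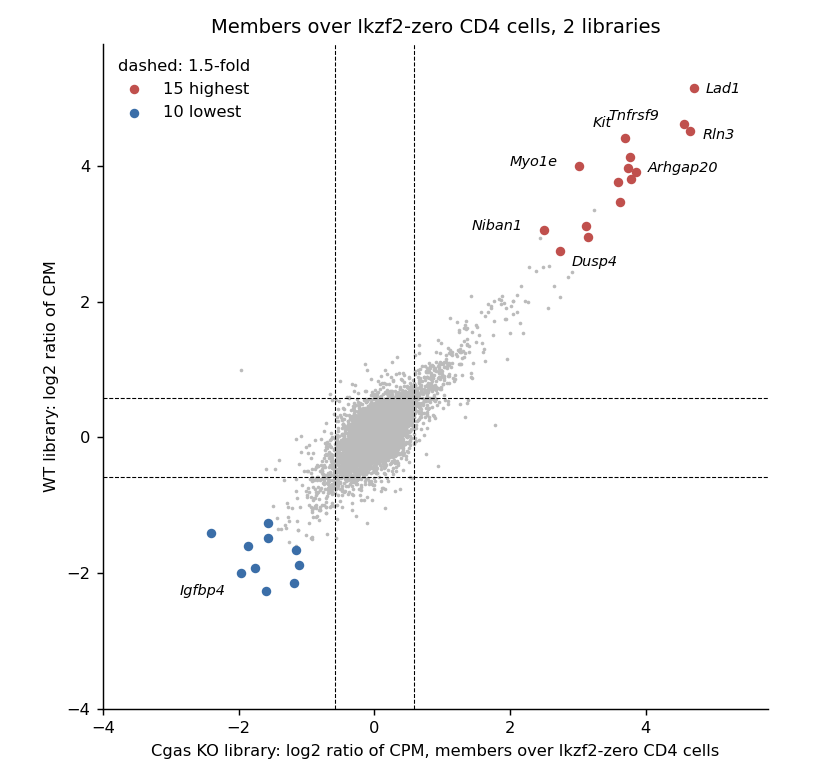
Log2 ratio of each measured gene in Helios-high cells over Ikzf2-zero cells, in the Cgas KO library on one axis and the WT library on the other. Dashed lines mark 1.5-fold, and the 15 highest and 10 lowest genes by the mean of both are coloured; Lad1, Tnfrsf9 and Rln3 lie farthest up in both libraries, and Igfbp4 near -2 in both.

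Tnfrsf9 was next read per cell. After each cell was thinned to 2000 UMIs, 44.5% of Cgas KO (40.2% to 48.8%) and 41.0% of WT Helios-high cells (36.5% to 45.7%) had a Tnfrsf9 UMI, against 2.67% in Cgas KO and 2.73% in WT Ikzf2-zero cells. In cells with a Cd8b1 UMI and no Cd4 UMI the thinned share was 8.67% in Cgas KO and 8.92% in WT. At full depth 62.9% of Cgas KO and 59.8% of WT Helios-high cells had a Tnfrsf9 UMI, so a sizeable part of them had none. A set of 6 genes was then counted together, Tnfrsf9, Tnfrsf4, Lad1, Pdcd1, Cd200 and Ikzf3, chosen after their values were seen. At least 3 of them were detected in 29.8% of Cgas KO (26.0% to 33.9%) and 30.0% of WT Helios-high cells (25.9% to 34.4%), against 1.06% in Cgas KO and 1.26% in WT Ikzf2-zero cells. None of them was detected in 15.4% of Cgas KO and 13.4% of WT Helios-high cells, against 59.4% in Cgas KO and 58.8% in WT Ikzf2-zero cells.

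Within the Helios-high cells, Tnfrsf9 and Lad1 had higher levels in cells with more Ikzf2 UMIs. At 3, 4 to 5, 6 to 9 and 10 or more Ikzf2 UMIs, Tnfrsf9 stood at 266, 304, 345 and 559 CPM in Cgas KO and at 211, 332, 462 and 489 CPM in WT. The genes named here were chosen after their values were seen, and cells of the top bin were deeper, with medians of 5064 UMIs in Cgas KO and 5593 UMIs in WT. Lad1 at the same steps stood at 85, 113, 128 and 244 CPM in Cgas KO and at 113, 114, 255 and 288 CPM in WT. Arhgap20 had the same order, with 164, 195, 290 and 335 CPM in Cgas KO and 109, 165, 240 and 308 CPM in WT. Igfbp4 had its lowest levels in the top bin, 76 CPM in Cgas KO and 95 CPM in WT, but was not in steady order in WT. Bcl2 at the same steps stood at 250, 247, 236 and 228 CPM in Cgas KO and at 399, 290, 229 and 256 CPM in WT.

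Tnfrsf9 was also read on either side of the rule's thresholds. Cells that missed the rule by having 1 or 2 Ikzf2 UMIs had Tnfrsf9 at 41 and 114 CPM in Cgas KO and at 54 and 101 CPM in WT. At a sum of 3 UMIs of Nr4a1, Nr4a3, Egr2 and Egr3, the last value inside, Tnfrsf9 was at 570 CPM in Cgas KO and 398 CPM in WT. At a sum of 4, the first value outside, it was at 480 CPM in Cgas KO and 512 CPM in WT. The level thus changed by steps across the Ikzf2 threshold, and in no common direction across the other.

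**Figure D3:**
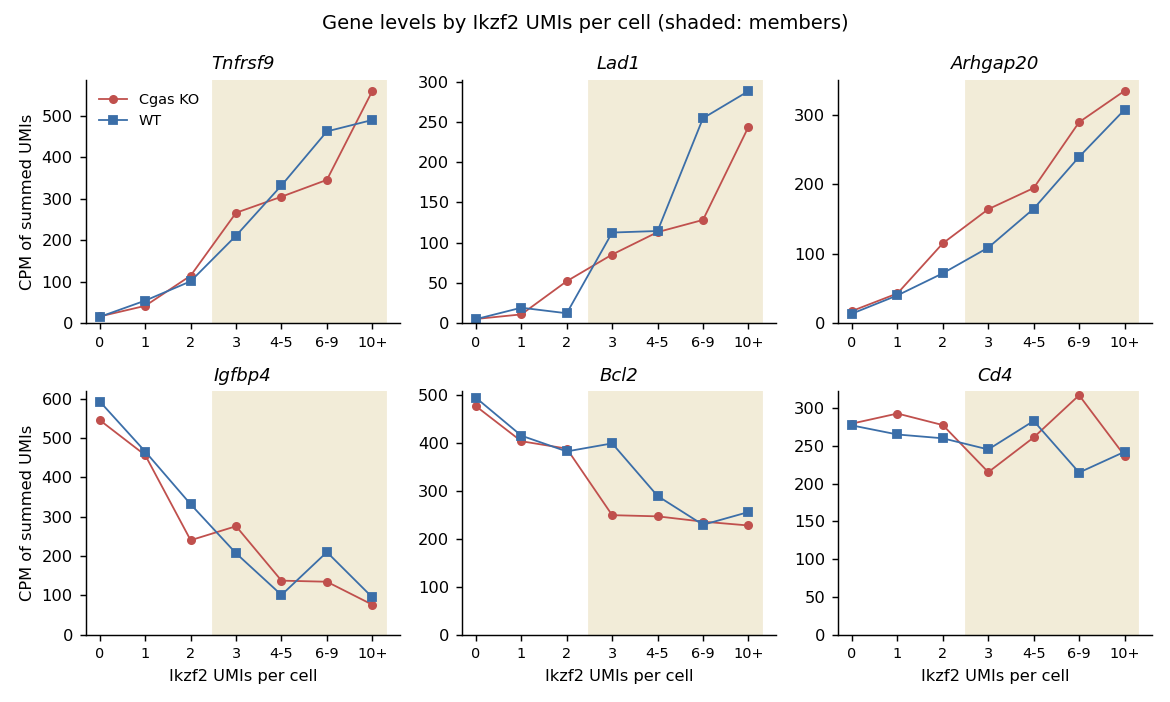
Level of selected genes, in CPM of summed UMIs, by the number of Ikzf2 UMIs in the cell, for both libraries, with the Helios-high cells (members) shaded. Tnfrsf9, Lad1 and Arhgap20 are higher in cells with more Ikzf2 UMIs, and Igfbp4 is lowest at 10 or more.

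Helios-high cells with and without a Tnfrsf9 UMI differed in other genes. In the 335 Cgas KO cells with a Tnfrsf9 UMI, Lad1 was at 232 CPM, against 31 CPM in the 198 without. In WT it was at 309 CPM in the 277 with and at 34 CPM in the 186 without. Tnfrsf4 followed the same order, with 428 CPM with and 190 CPM without in Cgas KO and 494 CPM with and 230 CPM without in WT, as did Nfkb2. S1pr1, the receptor by which mature thymocytes leave the thymus, ran the other way, with 150 CPM in cells with and 233 CPM in cells without a Tnfrsf9 UMI in Cgas KO, and 97 CPM with and 190 CPM without in WT. Bcl2 was at 220 CPM with and 269 CPM without in Cgas KO, and at 195 CPM with and 440 CPM without in WT. Ctla4 was lower in cells with a Tnfrsf9 UMI, with 59 CPM against 87 CPM in Cgas KO and 58 CPM against 97 CPM in WT. Cells with a Tnfrsf9 UMI were also deeper, with medians of 4658 UMIs against 4354.5 UMIs in Cgas KO and 5364 UMIs against 4830.5 UMIs in WT, and the part of depth in these differences was not tested.

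Foxp3-positive Ikzf2-high cells, which had at least 1 Foxp3 UMI and could hold Il2ra, numbered 136 in Cgas KO and 192 in WT. Of 7811 genes measured against them, 206 were higher in Helios-high cells (2.64%) and 177 were lower (2.27%), with a median log2 ratio of 0.10. Another 1091 genes were higher and 398 lower in 1 library and not in the other, so most differences past the fold were not shared. Trimmed-mean scaling gave 153 higher and 216 lower. Of 18 Treg-associated genes, 1 was higher, Lad1, and 12 were lower, with a median log2 ratio of -1.08. Lrrc32, which encodes the TGF-beta anchor GARP, had 6.7 CPM in Cgas KO and 10.6 CPM in WT Helios-high cells, against 72.2 CPM in Cgas KO and 52.8 CPM in WT Foxp3-positive cells. Gpr83 had 32.6 CPM in Cgas KO and 38.3 CPM in WT Helios-high cells, against 162.4 CPM in Cgas KO and 168.8 CPM in WT Foxp3-positive cells. Il2rb was at 85.8 CPM in Cgas KO and 100.7 CPM in WT Helios-high cells, against 340.4 CPM in Cgas KO and 392.9 CPM in WT Foxp3-positive cells. For Ikzf4 and Il2rb the Helios-high cells therefore lay between the Ikzf2-zero cells and the Foxp3-positive cells.

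The TNF receptor family did not follow a single order against Foxp3-positive cells, with 2 of 19 genes higher and 7 lower and a median of -0.05. Tnfrsf4 was at 341.4 CPM in Cgas KO and 396.5 CPM in WT Helios-high cells, against 759.4 CPM in Cgas KO and 690.0 CPM in WT Foxp3-positive cells. Tnfrsf18 was at 267.9 CPM in Cgas KO and 283.4 CPM in WT Helios-high cells, against 523.4 CPM in Cgas KO and 514.7 CPM in WT Foxp3-positive cells. Tnfrsf9 ran the other way without reaching the fold, with 398.8 CPM in Cgas KO and 392.5 CPM in WT Helios-high cells against 273.3 CPM in Cgas KO and 293.9 CPM in WT Foxp3-positive cells. The Tnfrsf9 ratio was 1.46 in Cgas KO (1.26 to 1.70) and 1.34 in WT (1.18 to 1.51). Lad1 reached it, with 158.6 CPM in Cgas KO and 207.2 CPM in WT Helios-high cells against 79.9 CPM in Cgas KO and 130.7 CPM in WT Foxp3-positive cells.

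Bcl2 was lower than in Foxp3-positive cells too, with 237.8 CPM in Cgas KO and 285.6 CPM in WT Helios-high cells against 705.2 CPM in Cgas KO and 591.8 CPM in WT Foxp3-positive cells. It was 1 of 4 of 17 apoptosis and survival genes that were lower, with 0 higher. Of 17 genes of mature cells and egress, 7 were lower and 0 were higher (median -0.63). S1pr1 had 180.0 CPM in Cgas KO and 131.7 CPM in WT Helios-high cells, against 277.2 CPM in Cgas KO and 289.0 CPM in WT Foxp3-positive cells. Klf2, a transcription factor that drives S1pr1, was lower too.

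Among the 8 highest genes against Foxp3-positive cells was Xcl1, a chemokine for dendritic cells, with 16.5 CPM in Cgas KO and 21.5 CPM in WT Helios-high cells against 0.0 CPM in Cgas KO and 2.4 CPM in WT Foxp3-positive cells. Its UMIs lay in 24 Cgas KO and 16 WT Helios-high cells, with 13 of 47 in 1 Cgas KO cell and 30 of 59 in 1 WT cell. Among the 8 highest were the mitosis genes Ube2c, Spc25, Cenpf and Plk1. Ube2c had 74.6 CPM in Cgas KO and 82.4 CPM in WT Helios-high cells, against 19.3 CPM in Cgas KO and 4.06 CPM in WT Foxp3-positive cells. Over the cell cycle list 1 of 14 genes was higher, with a median of 0.75, and against Ikzf2-zero cells 0 of 14 were called in either direction, with a median of -0.02. Nrgn was among the highest, but 85 of its UMIs in Cgas KO and 49 in WT came from 1 cell each. The lowest were Penk, Coro2a, Hopx, Lrrc32, Mbnl3, Ccr6, Itgb8 and Gpr83. Penk, which encodes the opioid precursor proenkephalin, had 18.9 CPM in Cgas KO and 0.7 CPM in WT Helios-high cells, against 78.6 CPM in Cgas KO and 71.4 CPM in WT Foxp3-positive cells. Its 54 UMIs in Cgas KO Helios-high cells lay in 5 cells, 21 of them in 1 cell.

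Nr4a/Egr-high Ikzf2-high cells met the same rule except that their sum over Nr4a1, Nr4a3, Egr2 and Egr3 was above 3, and they numbered 279 in Cgas KO and 239 in WT. They were the group most like the Helios-high cells by count of calls. Of 8242 genes, 62 were higher in Helios-high cells (0.752%) and 58 were lower (0.704%), with a median log2 ratio of -0.00. In 1 library and not in the other, 441 more were higher and 341 lower, above the 253 and 215 against Ikzf2-zero cells. The groups differ in size, and the part of size in these counts was not tested. Tnfrsf9 was at 398.8 CPM in Cgas KO and 392.5 CPM in WT Helios-high cells, against 428.3 CPM in Cgas KO and 437.9 CPM in WT Nr4a/Egr-high cells. Bcl2l11 was lower, with 139.7 CPM in Cgas KO and 119.3 CPM in WT Helios-high cells against 228.5 CPM in Cgas KO and 205.5 CPM in WT Nr4a/Egr-high cells.

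Further genes of early TCR response were lower beside those of the rule. The groups were split by counts of such genes, so lower levels of others induced with them are not independent of that split. Nr4a/Egr-high cells were also deeper, with medians of 5113 UMIs in Cgas KO and 5564 UMIs in WT. Helios-high cells had 4523 UMIs in Cgas KO and 5101 UMIs in WT, and the part of depth was not tested. Of 22 TCR-induced genes outside the rule, 5 were lower and 0 were higher (median -0.39), and of 20 NF-kappaB genes 2 were lower, Nfkbid and Tnfaip3. Nfkbid, which encodes a nuclear inhibitor of NF-kappaB, had 48.7 CPM in Cgas KO and 50.3 CPM in WT Helios-high cells, against 210.7 CPM in Cgas KO and 191.2 CPM in WT Nr4a/Egr-high cells. Dusp5, a phosphatase gene induced through ERK, had 139.7 CPM in Cgas KO and 126.2 CPM in WT Helios-high cells, against 402.5 CPM in Cgas KO and 356.6 CPM in WT Nr4a/Egr-high cells. Gadd45b had 62.3 CPM in Cgas KO and 48.1 CPM in WT Helios-high cells, against 185.5 CPM in Cgas KO and 181.6 CPM in WT Nr4a/Egr-high cells. Nfkb2 and Relb, in contrast, were not called, so the NF-kappaB genes did not all share this difference. Of 17 apoptosis and survival genes, 5 were lower and 0 higher, Gadd45b, Bcl2l11, Bcl2l1, Bcl2a1b and Bcl2a1d. Egr1, Fosl2, Tamalin, Chsy1 and Myc completed the 8 lowest, and Hopx, Spc25, Rarg, Nol4l, Mbnl3, Cdc45, H2bc3 and Plcb1 were the 8 highest.

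Markers of other cell types were read in the same sums. Of the 5 B cell markers, Ms4a1, which encodes CD20, was at 0 in Helios-high cells of both libraries, and the list summed to 42.4 CPM in Cgas KO and 32.8 CPM in WT, below the 75.6 CPM in Cgas KO and 56.5 CPM in WT Ikzf2-zero cells. Dendritic and myeloid markers summed to 138 CPM in Cgas KO and 141 CPM in WT Helios-high cells, against 69.7 CPM in Cgas KO and 50.8 CPM in WT Ikzf2-zero cells. Nearly all of it was Cd74, the invariant chain of MHC class II. Cd74 was at 134.1 CPM in Cgas KO and 135.0 CPM in WT Helios-high cells and at 52.1 CPM in Cgas KO and 40.3 CPM in WT Ikzf2-zero cells, while H2-Aa, a class II chain, was at 0.700 CPM in Cgas KO and 0.730 CPM in WT Helios-high cells. Double-positive cell markers summed to 634 CPM in Cgas KO and 632 CPM in WT Helios-high cells, against 578 CPM in Cgas KO and 586 CPM in WT Ikzf2-zero cells. Most of the sum in Helios-high cells was Themis, at 342.5 CPM in Cgas KO and 320.3 CPM in WT, and Tcf12. Cd1d1, at 59.5 CPM in Cgas KO and 51.8 CPM in WT, Dntt and Aqp11 were detected too. Rag2 and Ptcra were at 0, in cells chosen to have no Rag1 UMI. Thymic epithelial markers summed to 9.80 CPM in Cgas KO and 9.48 CPM in WT Helios-high cells, NK markers to 0.700 CPM in Cgas KO and 1.46 CPM in WT, and erythroid markers to 4.90 CPM in Cgas KO and 1.82 CPM in WT. Their part in the results was not tested.

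Of 7 genes of unconventional T cells, Il2rb and Rora were higher than in Ikzf2-zero cells. Zbtb16, the gene for PLZF, the factor of invariant natural killer T cells, had at least 3 UMIs in 5 Cgas KO Helios-high cells and in 1 WT cell. Of the 5, 1 carried an alpha chain of TRAV11 joined to TRAJ18, the pair used by those cells. This cell, with 10 Zbtb16 UMIs, is the single Helios-high cell with that pair.

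The TCR chains took no part in the rule. At least 1 productive chain was read in 94.4% of Cgas KO and 90.9% of WT Helios-high cells. At least 2 beta chains, a sign of 2 cells on 1 barcode or of incomplete allelic exclusion, were found in 12.2% of Cgas KO (9.54% to 15.3%) and 7.13% of WT Helios-high cells (4.96% to 9.86%), against 6.05% in Cgas KO and 5.77% in WT Ikzf2-zero cells. The part of such cells in the results was tested only by leaving them out, as given above. Examples of CDR3 sequences, the stretch of a chain that meets the peptide, are shown for the members with most chain UMIs in each of the readouts below. Chains of the beta locus lie on chromosome 6 and those of the alpha locus on chromosome 14. Capitals mark the central codons of each beta CDR3, and the alpha chain is the TRAV11 and TRAJ18 chain just described.
Cgas KO cell, hydrophobic centre, TRBV5 with TRBJ2-7, 16 Ikzf2 UMIs: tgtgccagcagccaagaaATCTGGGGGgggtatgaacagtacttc
Cgas KO cell, TRBV12 segment, TRBV12-1 with TRBJ2-4, 7 Ikzf2 UMIs: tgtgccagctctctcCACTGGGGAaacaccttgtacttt
Cgas KO cell, TRAV11 with TRAJ18, 4 Ikzf2 UMIs: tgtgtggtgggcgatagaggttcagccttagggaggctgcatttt
WT cell, hydrophobic centre, TRBV16 with TRBJ1-4, 8 Ikzf2 UMIs: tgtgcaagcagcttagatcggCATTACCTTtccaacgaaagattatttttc
WT cell, TRBV12 segment, TRBV12-2 with TRBJ2-4, 9 Ikzf2 UMIs: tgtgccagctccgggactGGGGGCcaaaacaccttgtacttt

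The V segments TRBV12-1 and TRBV12-2 were more frequent among Helios-high cells than among Ikzf2-zero cells. These 2 of 22 segments were chosen after the values of all segments were seen, so the difference is a description. Among cells with exactly 1 beta chain, 41 of 427 Cgas KO (9.60%, 6.98% to 12.8%) and 50 of 381 WT Helios-high cells (13.1%, 9.90% to 16.9%) used one of them. Ikzf2-zero cells used them in 3.81% (3.30% to 4.36%) in Cgas KO and 4.79% (4.19% to 5.46%) in WT. With 1 barcode per identical pair of chains the shares in Helios-high cells were 9.56% in Cgas KO and 13.2% in WT. The intervals of the 2 groups did not overlap in either library, but choosing the segments by their values favours this, so it is no support.

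High shares were not limited to the Helios-high cells. Nr4a/Egr-high cells had 12.0% in Cgas KO and 7.82% in WT, Foxp3-positive cells 9.47% in Cgas KO and 12.3% in WT, and cells with a Cd8b1 UMI and no Cd4 UMI 12.1% in Cgas KO and 15.2% in WT. TRBV12-1 alone was used by 6.79% of Cgas KO and 6.82% of WT Helios-high cells, against 1.99% in Cgas KO and 2.31% in WT Ikzf2-zero cells. TRBV12-2 alone was used by 2.81% of Cgas KO and 6.299% of WT Helios-high cells, against 1.82% in Cgas KO and 2.49% in WT Ikzf2-zero cells. Chains that the authors' files call jointly TRBV12-2 and TRBV13-2 were counted in neither, and made up 7.49% in Cgas KO and 9.45% in WT Helios-high cells, against 8.73% in Cgas KO and 9.07% in WT Ikzf2-zero cells.

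**Figure D4:**
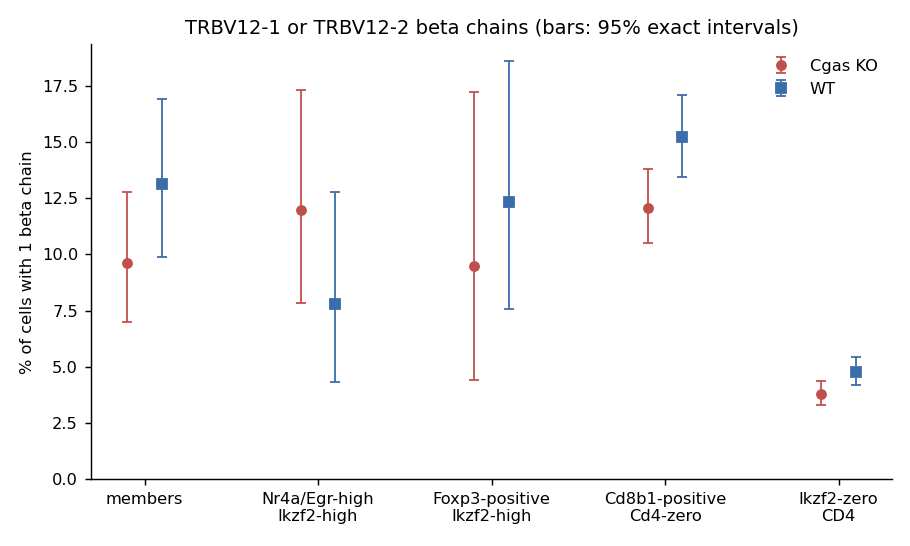
Percent of cells with exactly 1 beta chain that used TRBV12-1 or TRBV12-2, by cell group and library, with exact 95% Clopper-Pearson intervals. Helios-high cells (members) stand at 9.60% in Cgas KO and 13.1% in WT, against 3.81% in Cgas KO and 4.79% in WT Ikzf2-zero cells.

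Helios-high cells with these segments were compared with Helios-high cells that used other segments. Lad1 was at 219.8 CPM in Cgas KO and 285.4 CPM in WT cells with them, against 164.7 CPM in Cgas KO and 209.6 CPM in WT cells with others. Tnfrsf9 was at 541.8 CPM in Cgas KO and 567.1 CPM in WT cells with them, against 433.0 CPM in Cgas KO and 411.7 CPM in WT cells with others. Bcl2 was lower in cells with them, at 153 CPM in Cgas KO and 155 CPM in WT, against 218 CPM in Cgas KO and 260 CPM in WT cells with others. Lad1, Tnfrsf9 and Bcl2 thus ran in the same order in both libraries, over 41 Cgas KO and 50 WT cells. They were named from a longer set of genes, and the Lad1 intervals overlapped in both libraries. The Tnfrsf9 and Bcl2 intervals overlapped in Cgas KO and were apart in WT only. Tnfrsf4 ran against Tnfrsf9, with 332 CPM in Cgas KO and 368 CPM in WT cells with these segments. Cells with others had 355 CPM in Cgas KO and 453 CPM in WT. Tnfrsf18 was likewise lower in cells with these segments in both libraries. The share itself showed no single order with the Tnfrsf9 UMI, being 8.79% with and 11.04% without in Cgas KO and 13.7% with and 12.2% without in WT. At 10 or more Ikzf2 UMIs it was highest, 12.9% in Cgas KO and 16.2% in WT, with wide intervals. Ikzf2 was at 2059.9 CPM in Cgas KO and 1780.9 CPM in WT cells with these segments. Cells with others had 1642.6 CPM in Cgas KO and 1436 CPM in WT. The part of the Ikzf2 level in the differences above was not tested.

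Hydrophobic residues in the centre of the beta CDR3, a property linked to self-reactivity, were rare. At least 2 of the central residues were hydrophobic in 15 of 427 Cgas KO (3.51%, 1.98% to 5.73%) and 9 of 381 WT Helios-high cells (2.36%, 1.09% to 4.44%), against 1.95% in Cgas KO and 2.11% in WT Ikzf2-zero cells. The share in Ikzf2-zero cells lay inside the WT interval and just below the Cgas KO interval. Cysteine within the beta CDR3 was found in 5.85% of Cgas KO and 5.77% of WT Helios-high cells, against 6.59% in Cgas KO and 7.26% in WT Ikzf2-zero cells. Mean beta CDR3 lengths were 13.9 residues in Cgas KO and 13.7 residues in WT Helios-high cells, against 13.8 residues in Cgas KO and 13.9 residues in WT Ikzf2-zero cells. At least 2 alpha chains were read in 14.8% of Cgas KO and 12.6% of WT Helios-high cells with 1 beta chain, against 12.1% in Cgas KO and 11.9% in WT Ikzf2-zero cells.

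Between genotypes, the Helios-high cells differed most at genes of the interferon-inducible Ifi200 cluster and its surroundings on chromosome 1, and the same differences were present in Ikzf2-zero cells of the same libraries. Of 6687 genes measured, 45 were higher in Cgas KO (0.673%) and 58 were lower there (0.867%), each by 1.5-fold or more, with a median log2 ratio of -0.02. Without cells of shared TCRs, 1 barcode kept per combination, and cells with at least 2 beta chains, 54 were higher and 88 lower, with 36 and 48 in common.

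The deleted gene was read first. Cgas, at chr9 78430518 to 78443237, had 8 UMIs in Cgas KO and 15 UMIs in WT Helios-high cells, that is 2.80 CPM in Cgas KO and 5.47 CPM in WT. The ratio of 0.512 has an interval of 0.188 to 1.29, which includes equal levels. Counts from the end of the transcript may lie outside the deleted exons, which the sources used here do not give, so this is no check of the deletion. Of 8 genes of the cGAS and STING pathway list, 1 was lower, Aim2, and 0 were higher, with a median of 0.02. Sting1, which encodes the adaptor below cGAS, had a ratio of 1.01. Of 21 interferon-stimulated genes, 0 were called in either direction, with a median of -0.10, and without the cells of shared TCRs and several beta chains 1 was lower. The list of 13 CTCF and cohesin genes had 0 calls and a median of -0.01, and the ratio of Ctcf was 0.982.

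Ifi213, at chr1 173566280 to 173599348, was at 83.7 CPM in Cgas KO and 1.1 CPM in WT Helios-high cells, a ratio of 76.5 with an interval of 25.9 to 373. Ifi206, at chr1 173468485 to 173491318, was at 77.4 CPM in Cgas KO and 2.6 CPM in WT, with a ratio of 30.3 (14.5 to 76.3). Ifi208, at chr1 173673628 to 173698393, and Ifi209, at chr1 173630859 to 173647928, had ratios of 1.999 (1.604 to 2.501) and 1.91. These are members of the AIM2-like receptor family, whose proteins bind DNA, and they are close paralogs, so reads may be split among them. Aim2 itself, at chr1 173349547 to 173466040, ran the other way, with 19.3 CPM in Cgas KO and 64.9 CPM in WT and a ratio of 0.297 (0.215 to 0.403). Ifi204, below the CPM minimum, was also lower, with 0 UMIs in Cgas KO and 12 UMIs in WT Helios-high cells. In Ikzf2-zero cells it had 0.07 CPM in Cgas KO and 4.33 CPM in WT. Slamf6, at chr1 171917458 to 171948958 and coding for a receptor of the SLAM family, was at 78.1 CPM in Cgas KO and 29.9 CPM in WT, with a ratio of 2.61 (2.02 to 3.41).

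In Ikzf2-zero cells the log2 ratio of Cgas KO to WT was 5.48 for Ifi213, 3.74 for Ifi206, 0.83 for Ifi208, 0.73 for Ifi209, -2.25 for Aim2 and 1.48 for Slamf6. Each had the sign seen in the Helios-high cells, where the log2 ratios were 5.34, 4.46, 0.98, 0.92, -1.70 and 1.36. Both cell groups come from the same 2 libraries, so they do not stand for separate animals. Klhdc2 and Dynlt1b were likewise lower in both, with log2 ratios of -0.95 and -0.90 in Helios-high cells and -1.13 and -0.98 in Ikzf2-zero cells. Some others of the 10 highest and 10 lowest stood near equality in Ikzf2-zero cells. Tgtp1, an interferon-induced GTPase gene, had a ratio of 0.480 (0.338 to 0.674) in Helios-high cells and a log2 ratio of -0.16 in Ikzf2-zero cells. Rrm2, which encodes a subunit of ribonucleotide reductase, had a ratio of 0.530 in Helios-high cells and a log2 ratio of -0.07 in Ikzf2-zero cells.

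**Figure D5:**
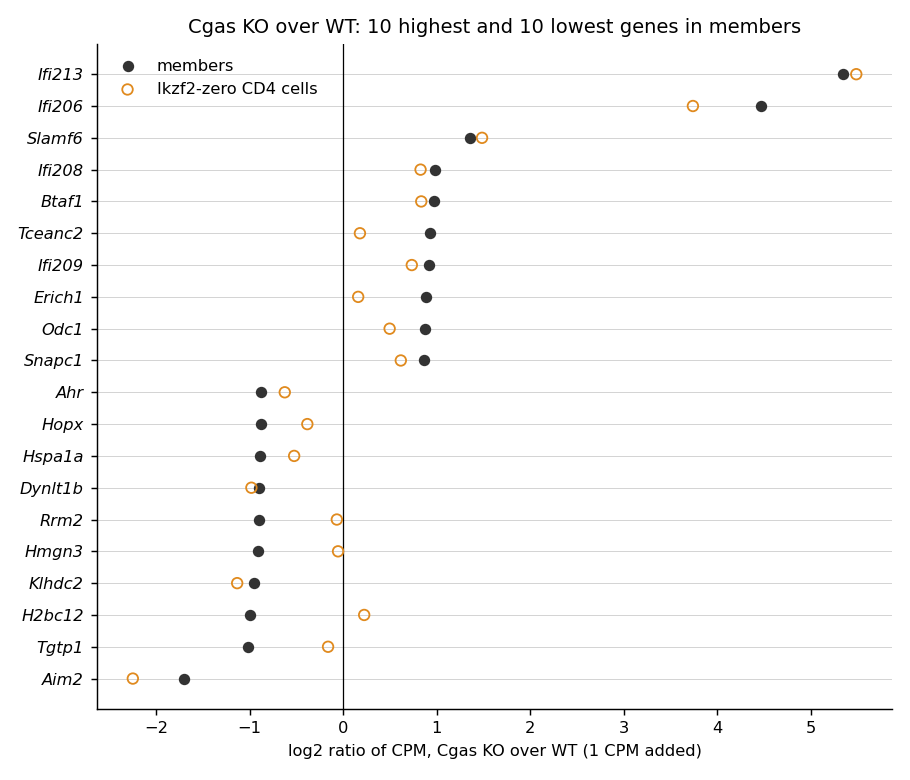
Log2 ratio of Cgas KO to WT for the 10 highest and 10 lowest genes in Helios-high cells (members), beside the same ratio in Ikzf2-zero cells. Ifi213, Ifi206, Slamf6 and Aim2 differ in both groups, while Tgtp1 and Rrm2 stand near 0 in Ikzf2-zero cells.

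Hspa1a and Hspa1b, which encode inducible HSP70 chaperones, were lower in Cgas KO and made up the 2 calls among 10 heat shock genes, which had a median of -0.25. Hspa1a was at 295.2 CPM in Cgas KO and 547.1 CPM in WT Helios-high cells, with a ratio of 0.540 (0.495 to 0.587), and its log2 ratio in Ikzf2-zero cells was -0.52. Of 14 cell cycle genes, Rrm2 was lower and 0 were higher, with a median of -0.41. Without the cells of shared TCRs and several beta chains, 3 were lower and the median was -0.39. Top2a, a mitotic topoisomerase gene, had a ratio of 0.695.

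Several genes that were higher in Helios-high than in Ikzf2-zero cells were set side by side between genotypes. Tnfrsf9 had a ratio of 1.02 (0.934 to 1.11), Tnfrsf4 of 0.861 (0.789 to 0.940), Lad1 of 0.766 (0.675 to 0.868) and Bcl2l11 of 1.17 (1.01 to 1.36). None of them reached the fold, and for Tnfrsf9 the interval includes equal levels. Over the TNF receptor family, NF-kappaB, TCR-induced, inhibitory receptor and apoptosis lists 0 genes were called in either direction, but 1 apoptosis and survival gene was higher in Cgas KO without the cells of shared TCRs and several beta chains. Of 15 Treg-associated genes 1 was lower, Nt5e, and of 11 genes of immature single-positive cells 1 was higher, Ccr4. Without those cells 0 of the 15 were called, so the Nt5e call was lost. Of 17 genes of mature cells and egress 0 were called, and 1 of 16 was lower without those cells. Hopx and the aryl hydrocarbon receptor gene Ahr, both among the 10 lowest, had ratios of 0.528 and 0.529.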

How the data were processed

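Expression was measured in 1 droplet library per genotype and TCR chains in 1 further library per genotype, grouped by sample title. The authors deposited UMI counts per gene and barcode as unfiltered matrices that name Cell Ranger 8.0.1, per the file headers. Other versions stand in the submitters' processing notes, Cell Ranger 7.0 beside Seurat 5.1.0 and the build mm10, and this conflict could not be settled. Expression was read from the 3' end, per the labels' protocols. In the deposited TCR files the authors list productive contigs with their UMI counts. The matrices held 87310091 UMIs in Cgas KO and 84763106 UMIs in WT, and no other series' columns were among them.

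Cells were kept and groups formed by the thresholds given with the results. No doublet caller was run; cells with at least 2 beta chains were left out in an alternative. UMIs were summed per group and library and scaled to CPM; ratios of single genes are raw CPM ratios with exact conditional intervals, and log2 ratios have 1 CPM added. Genes were measured with at least 100 UMIs together and a mean of at least 10 CPM between cell groups, or 20 CPM between genotypes. Shares were taken after thinning to 2000 UMIs (random seed 7). The scripts ran in Python 3.11.15 with numpy 2.4.6, scipy 1.17.1 and pandas 2.3.3, figures in matplotlib 3.10.9, and trimmed-mean factors (TMM) came from edgeR 4.0.16 in R 4.3.3. The comparison was tested on simulated data.

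The cells, the 24 gene lists and the alternatives were chosen with earlier results of these data known. The named genes were the 15 highest and 10 lowest against Ikzf2-zero cells, the 8 highest and 8 lowest against each other group, the 10 highest and 10 lowest between genotypes, and up to 6 genes of each list. TCR and immunoglobulin segments, ribosomal and mitochondrial genes, gene models without a proper symbol, the rule's genes and some sex-linked genes were left out of the counts. Other genes of the X chromosome, such as Itm2a and Mbnl3, stayed in. Coordinates and promoters are RefSeq's for GRCm38.p6, matched by symbol. Some list genes are not reported here.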

Additional observations from a re-analysis of the deposited data

Results flagged for a closer look

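For 2 genes the Helios-high cells of the libraries stood on opposite sides of the Ikzf2-zero cells, each past 1.5-fold, and the difference between genotypes was not tested. Ccl5, a chemokine gene, had a log2 ratio of Helios-high over Ikzf2-zero cells of -1.97 in Cgas KO and 0.997 in WT. It was at 1.75 CPM in Cgas KO and 19.7 CPM in WT Helios-high cells, against 9.79 CPM in Cgas KO and 9.37 CPM in WT Ikzf2-zero cells. The Cgas KO level rests on 5 UMIs in 4 cells, and the WT level on 54 UMIs in 10 cells, 21 of them in 1 cell. Spring1, a regulator of SREBP processing, had a log2 ratio of -0.653 in Cgas KO and 0.641 in WT. It was at 7.003 CPM in Cgas KO and 15.7 CPM in WT Helios-high cells, from 20 UMIs and 43 UMIs, against 11.6 CPM in Cgas KO and 9.70 CPM in WT Ikzf2-zero cells.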

How the results depend on the processing

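The ratio of the Helios-high share, Cgas KO to WT, lay between 0.985 and 1.13 under every alternative run. In the 667 alternatives computed for single named genes, no ratio moved by as much as 1.5-fold. No ratio of at least 1.5-fold changed direction. Changes of direction among smaller ratios were not counted. Counts of genes moved with the thresholds. With an Ikzf2 minimum of 2 UMIs, 85 genes were lower than in Ikzf2-zero cells, 41 higher than in Nr4a/Egr-high cells, 36 lower in Cgas KO than in WT, and the thinned Tnfrsf9 share was 36.5% in Cgas KO and 34.04% in WT. With a minimum of 5 it was 47.3% in WT, and without thinning 62.9% in Cgas KO and 59.8% in WT. Trimmed-mean scaling gave 212 genes lower than in Ikzf2-zero cells.

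In the order higher and lower, a mean of at least 50 CPM left 122 and 51 genes against Ikzf2-zero cells, 41 and 94 against Foxp3-positive cells, 7 and 37 against Nr4a/Egr-high cells and 12 and 15 between genotypes. With no minimum CPM and 20 UMIs together these were 663 and 333, 528 and 332, 202 and 145, and 344 and 398. A 2-fold limit gave 118 and 27, 34 and 68, 4 and 15, and 4 and 5. Adding 5 CPM gave 126 genes higher than in Foxp3-positive cells, 26 higher than in Nr4a/Egr-high cells and 28 higher in Cgas KO than in WT. With the rule applied to thinned cells, 380 genes were higher than in Foxp3-positive cells, and 164 were higher and 103 lower than in Nr4a/Egr-high cells. A limit of 1 on the Nr4a and Egr sum gave 41 genes higher than in Nr4a/Egr-high cells and 88 lower in Cgas KO than in WT, and no limit gave 18 higher in Cgas KO. Without cells of at least 2 beta chains 90 genes were lower in Cgas KO, and 88 with 1 barcode per identical chains as well, an alternative chosen after seeing the data. Counting alanine and cysteine as hydrophobic raised the WT share of hydrophobic beta centres to 4.72%.

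The cause of these moves was not tested, beyond stricter or looser limits admitting fewer or more genes. No paired analysis was possible because each genotype had 1 library, without replicate numbers, and no result comes from a test; for the same reason no replicate could be left out. Depth limits low genes: 3 UMIs, the limit that a count of 0 allows, correspond to 1.05 CPM in Cgas KO and 1.09 CPM in WT Helios-high cells.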
